A study of Mus musculus with 5 samples.

Results

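The mitochondrial chromosome of the mouse carries 37 genes, which were taken from the deposited counts by their place on chromosome M and their symbols beginning with mt-. They are 13 mRNA genes, 2 rRNA genes and 22 tRNA genes, out of 55487 gene identifiers counted. RNA was sequenced from CD4 single positive (SP) thymocytes, T cells of the thymus that have kept CD4 and lost CD8, of 3 wild type (WT) C57BL/6J mice and 2 *Tet2/3* DKO mice, with 1 library per mouse. *Tet2/3* DKO mice were Tet2-/- Tet3 flx/flx CD4cre on the same strain, so that *Tet2* is missing from every cell while *Tet3* is deleted only in cells that have switched on the CD4 promoter. The TET proteins oxidise methylated cytosine in DNA, and the comparison asks how the transcripts of these cells differ without *Tet2* and *Tet3*. All mice were 21 to 30 days old, and CD24 low, TCRβ+, CD1d tetramer- cells were sorted to a purity over 98%. Nothing in the labels says that the mice were littermates, and p-values measure only the spread between these 5 libraries.

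Mitochondrial DNA is a small circle read from both strands into long precursors. The tRNAs lie between the mRNAs and rRNAs like punctuation marks, and cutting at the tRNAs frees the other transcripts. The mRNAs encode core subunits of the respiratory chain, the rRNAs build the mitochondrial ribosome, and all other proteins of the organelle come from nuclear genes. Over evolution, pieces of mitochondrial DNA have also been inserted into nuclear chromosomes, where they are annotated as pseudogenes. Mitochondrial DNA is inherited from the mother.

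Reads counted on genes came to between 17607089 and 27267031 per library, and only reads with 1 place in the genome and 1 gene were counted. *Tet3* had 1133, 1082 and 1440 counts in the WT libraries and 419 and 235 in the *Tet2/3* DKO libraries, giving a log2 fold change of -1.50 (SE 0.18, edgeR adjusted p = 0.00121). *Tet2* did not pass the test (log2 fold change 0.46, SE 0.17, edgeR adjusted p = 0.135, from 0.000506 to 0.725 over the alternatives). Scaled by edgeR it had 52.4 to 57.8 CPM in WT, 91.5 in *Tet2/3* DKO replicate 1 and 58.6 in replicate 2, and counts per gene do not test its genotype. Sex-linked genes went against the label in 2 libraries, of which WT replicate 1 matches the study's own description of the mice as male and *Tet2/3* DKO replicate 1 does not. The library labelled WT replicate 1, given as female, had 0 *Xist* counts and 6821 counts on 4 Y-linked genes, and the library labelled *Tet2/3* DKO replicate 1, given as male, had 744 and 7. *Cd4* was detected in every library, at 575 to 759 counts per 1000000 (CPM) in the WT libraries and 382 to 440 in the *Tet2/3* DKO libraries.

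The sequences that matter for the result on *mt-Nd3*, which encodes a subunit of complex I, are those of the gene and of its nuclear copy, *Gm28438*. Both are shown 5′ to 3′ from their first base as annotated in GENCODE M21 (GRCm38, the mm10 build), with the base that differs in capitals. The gene lies on the plus strand at chrM:9459-9518 and the copy on the minus strand at chr1:24613060-24613119 for the 60 bases shown.
mt-Nd3: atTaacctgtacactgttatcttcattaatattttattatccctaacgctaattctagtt
Gm28438: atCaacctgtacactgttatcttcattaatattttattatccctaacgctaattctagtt
Counted from the first base of *mt-Nd3*, the substitution is T3C, and it is the 1 difference in 345 aligned bases. The 342 bases after it are identical in an unbroken run.

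*Gm28438* is 1 of 7 pseudogenes on the minus strand of chromosome 1, between 24611535 and 24616197, that follow each other in the order of the mitochondrial genes. *Gm28661* copies 681 of the 684 bases of *mt-Co2*, *Gm10925* copies 678 of the 681 of *mt-Atp6*, *Gm28437* copies 783 of the 784 of *mt-Co3*, and *Gm10222* copies 294 of the 297 of *mt-Nd4l*. These 4 pairs had 0 differences. *Gm28439* matches the first 876 of the 1378 bases of *mt-Nd4*, again with 0 differences, and *Gm29216* matches bases 1063 to 1545 of *mt-Co1* with 1. That difference is A1066T, shown here from base 1063 of *mt-Co1* (plus strand, chrM:6390-6449) beside the copy (minus strand, chr1:24616129-24616188).
mt-Co1: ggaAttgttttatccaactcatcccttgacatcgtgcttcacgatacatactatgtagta
Gm29216: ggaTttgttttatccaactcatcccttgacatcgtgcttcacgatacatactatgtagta
Outside chromosome 1, 10 further annotated copies were found, at identities up to 97.61%, that of *Gm13340* to the whole of *mt-Co1*, with 0 to 14 counts each per library. The gene *mt-Atp8* has no annotated copy of its own, but the stretch collinear with it, 24614609 to 24614812, lies inside the same region.

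Of the 13 mRNA genes, 3 had 0 counts in every library. These were *mt-Co2*, a subunit of complex IV, *mt-Atp8*, a subunit of ATP synthase, and *mt-Nd4l*, a subunit of complex I. A further 2 were almost without counts, with at most 1 for *mt-Atp6*, another ATP synthase subunit, and at most 3 for *mt-Co3*, another complex IV subunit. Of these 5 genes, 4 are the ones copied with 0 differences over nearly their whole length. Since reads with several places in the genome were left out, a count of 0 on these genes does not show that the transcript was absent. Reads with several places made up 7.88% to 8.20% of all reads, and they are not assigned to genes.

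The other mRNA genes and both rRNA genes were counted well, except *mt-Nd3*. Per length, in reads per kilobase per 1000000 counted reads (RPKM), *mt-Cytb*, the complex III subunit, was highest in WT at 1911 ± 119 (SD, n = 3, as for all WT values). It was followed by *mt-Rnr2*, the large ribosomal RNA, at 1382 ± 39.2, *mt-Co1*, the catalytic subunit of complex IV, at 1294 ± 111 and *mt-Nd1* of complex I at 1201 ± 115. The SD ranges of *mt-Rnr2* and *mt-Co1* overlapped, and so did those of *mt-Co1* and *mt-Nd1*. A lower group held 3 complex I subunits, *mt-Nd4* at 216.5 ± 12.6 RPKM, *mt-Nd5* at 213 ± 14.3 and *mt-Nd2* at 159.6 ± 29.8, and the first and second of these did not differ beyond their spread. *mt-Rnr1*, the small ribosomal RNA, had 92.1 ± 5.99 RPKM, and *mt-Nd6*, the complex I subunit encoded on the other strand, had 77.9 ± 1.96. The place of *mt-Nd6* depended on the counting, since the counts by strand, which keep reads in its overlap with *mt-Nd5*, gave it 204 ± 18.4 RPKM in WT, above *mt-Nd2* and *mt-Rnr1*. That value adds both strand settings, so a read in the overlap enters *mt-Nd6* and *mt-Nd5* alike. The kit does not keep the strand, and in neither count can reads of *mt-Nd6* be told from RNA of the opposite strand. *mt-Nd3* was counted at 9.99 ± 2.93 RPKM, which is no transcript level, because 345 of its 348 bases have a nuclear copy and reads that matched both equally were left out. Over full gene lengths, the order in the *Tet2/3* DKO libraries was the same except that *mt-Co1* (1627 ± 25.3, SD, n = 2) stood above *mt-Rnr2* (1484 ± 317), within the spread of the latter, and that *mt-Nd3* was at 0. Levels of *mt-Co1* and *mt-Nd4* are understated on this scale if reads in the stretches with a near-identical chromosome 1 copy were left out. Divided by the bases outside those stretches alone, levels were 1883 and 594 RPKM in WT, and 2367 and 718 in the *Tet2/3* DKO libraries, where *mt-Co1* then stood above *mt-Cytb* (2222 RPKM).

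**Figure D1:**
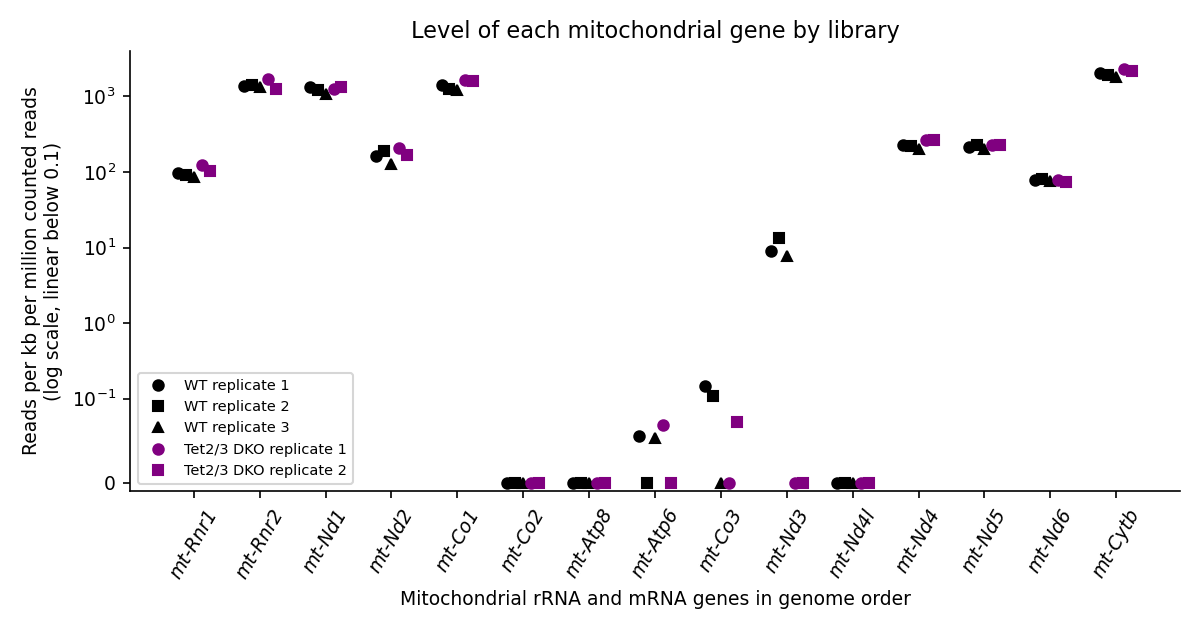
Level of the 13 mRNA and 2 rRNA genes in genome order (x axis) in reads per kilobase per 1000000 counted reads (y axis, log scale, linear below 0.1), with 1 point per library, WT in black and *Tet2/3* DKO in purple. The genes from *mt-Co2* to *mt-Nd4l* are at or near 0 in all libraries, except *mt-Nd3*, which is near 10 in the WT libraries and at 0 in both *Tet2/3* DKO libraries.

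Mitochondrial genes took 0.898%, 0.853% and 0.802% of the counted reads in the WT replicates 1, 2 and 3, and 1.02% and 0.933% in the *Tet2/3* DKO replicates 1 and 2. Both *Tet2/3* DKO libraries were above all WT libraries, and the means were 0.851% ± 0.0480 (SD, n = 3) and 0.976% ± 0.0601 (SD, n = 2). The two-sided exact permutation test gave p = 0.1, which is the smallest that 3 against 2 libraries allow, and 0.467 after Benjamini-Hochberg adjustment over the 14 measures compared. The mRNA share was 0.623% ± 0.0452 (SD, n = 3) in the WT libraries and 0.730% ± 0.00863 (SD, n = 2) in the *Tet2/3* DKO libraries, again without overlap (exact permutation p = 0.2). The rRNA share was 0.227, 0.234 and 0.221% in the WT libraries and 0.282 and 0.209% in the *Tet2/3* DKO libraries, so that the WT values lay between the other 2 (exact permutation p = 0.7). All these shares leave out reads with several places in the genome, so genes with an identical chromosome 1 copy add almost nothing to them. They are shares of the counted reads and not of all mitochondrial RNA. In bulk libraries, fewer cells of a type and less RNA per cell cannot be told apart.

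Some values of other cell types and of the mapping also differed without overlap between the genotypes. The summed level of 4 myeloid genes was 6.20 to 11.5 CPM in the WT libraries and 20.6 and 45.2 in the *Tet2/3* DKO libraries, most of it *Lyz2*. The genes of the CD8 chains went opposite ways, with *Cd8b1* at 65.8 to 72.1 CPM in WT against 28.0 and 27.5, and *Cd8a* at 2.66 to 5.43 CPM against 5.66 and 8.80. Reads with several places made up 7.88% to 8.08% in the WT libraries and 8.12% to 8.20% in the *Tet2/3* DKO libraries, and unmapped reads 2.69% to 2.76% against 2.97% to 3.39%. Reads on overlapping genes went the other way, at 6.55% to 6.73% against 6.50% and 6.47%. Reads on no gene were 5.70% in *Tet2/3* DKO replicate 1, which had the highest mitochondrial share, and 3.51% to 3.72% in the other libraries. Their part in the mitochondrial share was not tested. Of the genes that mark CD4 SP cells, *Cd4*, *Ccr7* (2179 to 2234 CPM in WT against 1443 and 1356) and *Cd3e* (657 to 748 against 653 and 631) were lower in both *Tet2/3* DKO libraries, *Trbc1* was higher (1168 to 1302 against 1536 and 1476) and *Trac* and *Trbc2* overlapped. All 6 summed to 8429 to 8888 CPM in WT against 7971 and 7470. The 3 genes of thymic epithelium summed to 9.67 to 11.5 CPM in WT against 10.3 and 34.3, with *Epcam* at 34.3 in *Tet2/3* DKO replicate 2 and 8.11 to 10.9 in the other libraries, *Psmb11* at 0.660 to 1.48 in WT against 0.0468 and 0, and *Krt5* at no more than 2 counts in any library. The 4 B cell genes summed to 1.98 to 3.30 CPM in WT against 1.73 and 3.35, and erythroid genes to at most 0.341 CPM in any library.

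**Figure D2:**
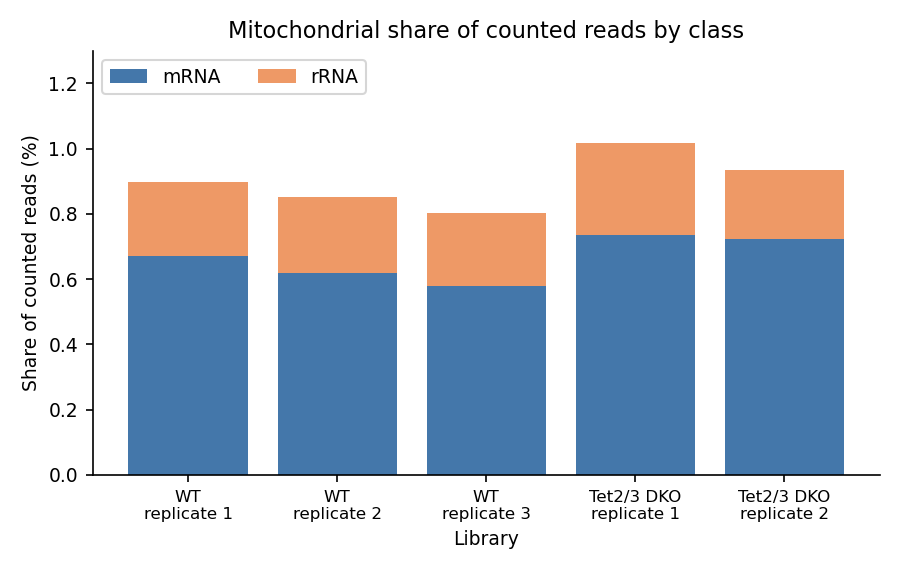
Share of counted reads on mitochondrial genes (y axis, percent, from 0) in each library (x axis), split into mRNA (blue) and rRNA (orange), with tRNA too small to draw. The whole bars reach 0.802% to 0.898% in the WT libraries and 0.933% and 1.02% in the *Tet2/3* DKO libraries, and the rRNA part is both highest and lowest in the *Tet2/3* DKO pair. Reads with several places in the genome are not included.

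Of the 37 genes, 11 passed the filter on low counts (8 mRNA, 2 rRNA and 1 tRNA gene) and 26 did not. Of the 11, 1 was called, *mt-Nd3*, which was lower (edgeR adjusted p under 0.01), where 3.92% of all 13525 genes tested were called 1.50% were called lower and 2.42% higher. DESeq2 also called 1, against 7.03% of its genes. At an unadjusted p under 0.05 there were 5 of 11 against 23.0% of all genes. The libraries of the genotypes did not overlap for 4 members that were higher and 1 that was lower in the *Tet2/3* DKO libraries, against 19.6% of all genes that were higher, 19.5% that were lower and 39.1% in either direction. The median log2 fold change was 0.11 over the 11 and 0.0076 over all genes, and the 10 members other than *mt-Nd3* ranged from -0.05 to 0.33.

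*mt-Nd3* (ENSMUSG00000064360, chromosome M from 9459 to 9806) had 81, 109 and 74 counts in the WT replicates 1, 2 and 3, and 0 in both *Tet2/3* DKO libraries. Against a floor of 3 counts over the *Tet2/3* DKO pair this was at least 44.5-fold lower (edgeR adjusted p = 0.00294, from 8.69e-07 to 0.0175 over the alternatives). Leaving out any 1 WT library ended the call, with edgeR adjusted p-values from 0.0143 to 0.0175. Without *Tet2/3* DKO replicate 1, whose sex-linked genes go against its label, the remaining *Tet2/3* DKO library also had 0 counts, and the edgeR adjusted p of 0.000309 then assumes that this lone library varies like the WT libraries.

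*Gm28438*, the chromosome 1 copy, had 4, 1 and 0 counts in the WT libraries and 65 and 76 in the *Tet2/3* DKO libraries. The 2 genotypes did not overlap, and pooled counts per 1000000 were 55.8 times as high in *Tet2/3* DKO as in WT libraries (exact counting interval 23.3 to 174). edgeR gave a log2 fold change of 5.70 (SE 0.60, adjusted p = 0.000151, and 0.0109 without WT replicate 2, which ended the call), with log2 fold changes of 5.10 to 7.18 on leaving out 1 library and of 4.83 and 8.27 by strand. Of the reads on either gene, the copy held 4.71% (95% Wilson interval 1.85 to 11.5), 0.909% (0.161 to 4.97) and 0% (0 of 74, with a Wilson upper bound of 4.935) in the WT libraries. It held 100% in both *Tet2/3* DKO libraries, with lower Wilson bounds of 94.4% and 95.2%. Such intervals cover counting error only, as the libraries carry no molecular identifiers.

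Added together, *mt-Nd3* and *Gm28438* had 85, 110 and 74 counts in the WT libraries and 65 and 76 in the *Tet2/3* DKO libraries. Scaled to counted reads the sum was 3.54 ± 1.02 CPM (SD, n = 3) and 3.68 ± 0.902 (SD, n = 2), and the genotypes overlapped. Fitted as 1 feature, chosen after the data were seen, the pair had a log2 fold change of 0.054 (SE 0.32, edgeR adjusted p = 0.949, interval -0.57 to 0.68), and no mitochondrial gene was then called. The counted reads thus lay on *mt-Nd3* in the WT libraries and on its copy in the *Tet2/3* DKO libraries, at a summed level that was not distinguishable at this depth. The counts do not hold the bases of the reads. Whether the reads carried T or C at position 9461 of chromosome M, or at 24613117 of chromosome 1, was not measured, and the gene that the reads came from cannot be told apart.

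**Figure D3:**
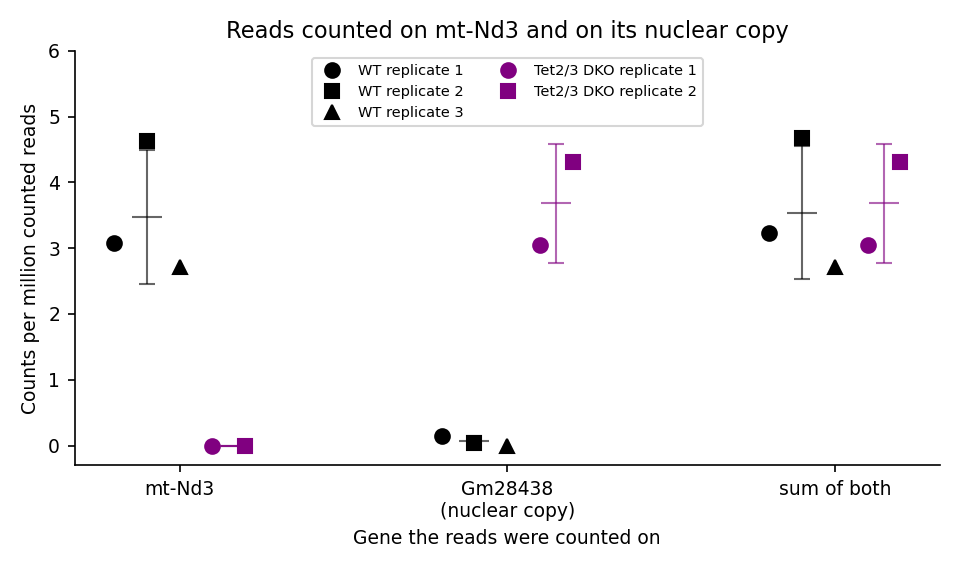
Counts per 1000000 counted reads (y axis) on *mt-Nd3*, on *Gm28438* and on both summed (x axis), with 1 point per library and bars for mean ± SD (n = 3 WT, black, and n = 2 *Tet2/3* DKO, purple). *mt-Nd3* holds the reads in WT, *Gm28438* holds them in the *Tet2/3* DKO libraries, and the sums overlap.

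Measured against its neighbours *mt-Co3*, *mt-Nd4l* and *mt-Nd4*, *mt-Nd3* had 9.96, 15.1 and 9.75 counts per 1000 in WT libraries and 0 in both *Tet2/3* DKO libraries (exact permutation p = 0.1). Nearly all neighbour counts were on *mt-Nd4*. With *Gm28438* added, the values were 10.45, 15.2 and 9.75 in the WT libraries and 8.41 and 12.0 in the *Tet2/3* DKO libraries, which overlapped (exact permutation p = 0.7, adjusted p = 0.754 over the 14 measures). The other 6 copies on chromosome 1 had 0 to 5 counts each in every library. Together these 6 had 0.0611 ± 0.0194 counts per 1000 mitochondrial mRNA counts (SD, n = 3) in the WT libraries and 0.0482 ± 0.0127 (SD, n = 2) in the *Tet2/3* DKO libraries (exact permutation p = 0.5). With the 10 copies outside chromosome 1 included, a choice made after the data were seen, the order of the means turned, at 0.147 ± 0.0215 and 0.163 ± 0.0305, and the genotypes overlapped in both counts. Those 10 alone had 0.0857 ± 0.00544 (SD, n = 3) in the WT libraries and 0.115 ± 0.0178 (SD, n = 2) in the *Tet2/3* DKO libraries, without overlap. That rests on 14, 13 and 14 counts against 20 and 13, and was not tested.

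Among the other mRNA genes, *mt-Co1* had the largest log2 fold change and did not pass the test. Its level was 2002 ± 201 CPM (scaled by edgeR, SD, n = 3) in the WT libraries and 2519 ± 99.2 (SD, n = 2) in the *Tet2/3* DKO libraries, with counts of 57716, 45191 and 51284 against 54309 and 43768. The log2 fold change was 0.33 (SE 0.10, edgeR adjusted p = 0.0692, DESeq2 adjusted p = 0.0233), and scaled levels did not overlap. *mt-Nd4* had 8129, 7231 and 7588 counts in the WT libraries and 7731 and 6319 in the *Tet2/3* DKO libraries, also without overlap once scaled (log2 fold change 0.27, SE 0.09, edgeR adjusted p = 0.0934). *mt-Cytb* had 2189 ± 166 CPM (SD, n = 3) in the WT libraries and 2548 ± 132 (SD, n = 2) in the *Tet2/3* DKO libraries (log2 fold change 0.22, SE 0.09, edgeR adjusted p = 0.180). These 3 genes and *mt-Rnr1* are the members whose scaled levels in both *Tet2/3* DKO libraries exceeded those in all WT libraries.

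The remaining complex I genes did not pass the test. *mt-Nd2* had a log2 fold change of 0.22 (SE 0.16), *mt-Nd1* of 0.11 (SE 0.10) and *mt-Nd5* of 0.09 (SE 0.09), and the genotypes overlapped for each. With 1 library left out these ranged from 0.03 to 0.37, from 0.04 to 0.19 and from 0.03 to 0.13. *mt-Nd6* lies on the opposite strand and overlaps the end of *mt-Nd5*. It had 1071, 970 and 1071 counts in the WT libraries and 858 and 665 in the *Tet2/3* DKO libraries, giving a log2 fold change of -0.05 (SE 0.11, edgeR adjusted p = 0.851) that turned positive, 0.12 and 0.16, in the counts taken by strand. Per 1000 *mt-Nd5* counts, *mt-Nd6* had 104.9, 99.3 and 108.2 in the WT libraries and 97.3 and 91.6 in the *Tet2/3* DKO libraries, without overlap (exact permutation p = 0.2). Counted by strand, an alternative added after the data were seen, the same ratio overlapped, at 224 to 244 in WT against 233 and 232 on one setting and 231.5 to 239 against 230 and 251 on the other. On either setting, reads in the overlap go to *mt-Nd6* or *mt-Nd5* by a direction that the kit does not keep. Since both sides of the ratio then hold such shared reads, it cannot decide whether the genotypes differ.

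**Figure D4:**
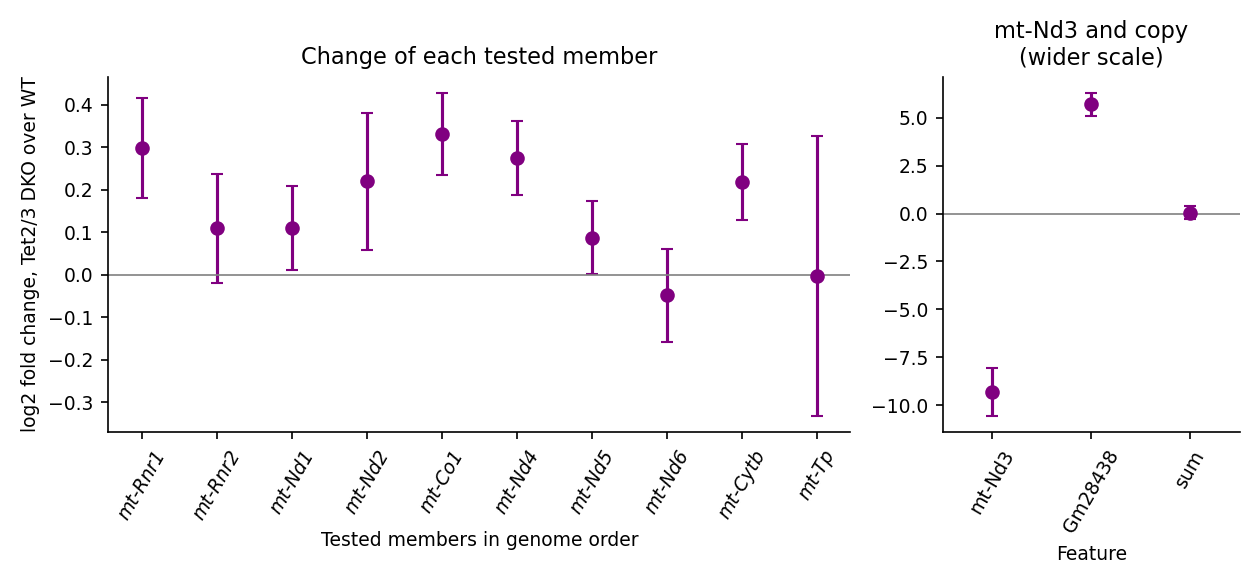
log2 fold change of *Tet2/3* DKO over WT (y axis, points with bars of 1 SE from edgeR) for the 10 tested members other than *mt-Nd3* in genome order on the left, and for *mt-Nd3*, *Gm28438* and their sum on a wider scale on the right. The 10 lie between -0.05 and 0.33, and the sum lies at 0.054 between the fitted values of its 2 parts, of which that of *mt-Nd3* depends on the prior count.

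The rRNAs made up 25.3%, 27.4% and 27.6% of mitochondrial counts in the WT libraries and 27.7% and 22.4% in the *Tet2/3* DKO libraries (exact permutation p = 0.7). Nearly all of this was *mt-Rnr2*, with 57204, 52996 and 58065 counts in the WT libraries and 57750 and 35104 in the *Tet2/3* DKO libraries (log2 fold change 0.11, SE 0.13, edgeR adjusted p = 0.684). *mt-Rnr1* had 2459, 2072 and 2240 counts in the WT libraries and 2504 and 1732 in the *Tet2/3* DKO libraries, with a log2 fold change of 0.30 (SE 0.12, edgeR adjusted p = 0.163) that fitted as 0.14 when *Tet2/3* DKO replicate 1 was left out and as 0.43 when replicate 2 was. Per 1000 *mt-Rnr2* counts, *mt-Rnr1* had 43.0, 39.1 and 38.6 in the WT libraries and 43.4 and 49.3 in the *Tet2/3* DKO libraries, which did not overlap (exact permutation p = 0.2). The libraries were primed on poly(A) tails, so levels of rRNA and tRNA are levels of what that priming captured. Leaving out reads with several places touches mRNA genes with a chromosome 1 copy and neither rRNA gene. The rRNA share is therefore a share of the counted reads only.

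Of the 22 tRNA genes, 15 had 0 counts in every library, 5 had at most 10 and 2 had more. The tRNA for proline, *mt-Tp*, had 55, 38 and 48 counts in the WT libraries and 42 and 29 in the *Tet2/3* DKO libraries, giving a log2 fold change of -0.0031 (SE 0.33, edgeR adjusted p = 0.997), and *mt-Tq*, the tRNA for glutamine, had 2 to 16 counts and was not tested. For some of these genes a count of 0 depended on the counting. Reads touching 2 genes were left out of the counts taken without regard to strand, while the counts taken by strand kept them where the genes lie on opposite strands. *mt-Ts1*, a serine tRNA on the opposite strand at the end of *mt-Co1*, had 0 counts without regard to strand and 323 to 532 on one strand setting and 224 to 466 on the other. *mt-Ty*, the tyrosine tRNA before *mt-Co1*, likewise had 0 and then 81 to 154 and 89 to 149. Over both settings and all libraries, *mt-Tw* had 161 counts, *mt-Tn* 16, *mt-Tm* 2 and *mt-Ti* 1, and the other 9 of the 15 stayed at 0. The kit does not keep the strand: the 11 genes with at least 1000 counts by strand had forward shares of 49.7% to 53.3%, so reads on a tRNA gene and reads of the mRNA opposite it cannot be told apart. Of the 7 and 6 tRNA genes tested on the 2 strand settings, 0 passed the edgeR threshold, against 3.84% and 4.07% of all genes on those settings, and 1 on each, *mt-Ts1*, had an unadjusted p under 0.05, against 21.7% and 21.4%. Counts by strand came to 2.72 times those without regard to strand for *mt-Nd6* and 1.17 times for *mt-Nd5*, and to at most 1.02 times for the other well-counted mRNA and rRNA genes.

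Nuclear genes of the same pathway were set beside the members. Of 80 tested nuclear subunits of the respiratory chain complexes and ATP synthase, edgeR called 0, against 3.92% of all genes, and DESeq2 called 0, against 7.03%. At an unadjusted p under 0.05 there were 4, against 23.0% of all genes, and their median log2 fold change was 0.041. Of 126 tested genes of mitochondrial gene expression (transcription and replication of mitochondrial DNA, RNA processing, biogenesis regulators and the mitochondrial ribosome), edgeR called 1, against 3.92% of all genes, and DESeq2 called 2. The called gene was *Rexo2*, an exonuclease that degrades short RNAs in mitochondria. *Rexo2* had 228 ± 16.4 CPM (SD, n = 3) in the WT libraries and 322 ± 8.36 (SD, n = 2) in the *Tet2/3* DKO libraries (log2 fold change 0.50, SE 0.09, edgeR adjusted p = 0.00875, and up to 0.0502 over the alternatives). The call was lost without any 1 WT library, with the replicate block (edgeR adjusted p = 0.0253) and without the filter on low counts (edgeR adjusted p = 0.0109). The second gene of DESeq2 was *Mrps36* (edgeR adjusted p = 0.0313, DESeq2 adjusted p = 0.00681), which carries a mitochondrial ribosome symbol.

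The main factors that copy and transcribe mitochondrial DNA did not pass the test. *Tfam*, which packages mitochondrial DNA and starts its transcription, had 130 ± 5.30 CPM (SD, n = 3) in the WT libraries and 131 ± 9.06 (SD, n = 2) in the *Tet2/3* DKO libraries. The log2 fold change was -0.16 (SE 0.15) for *Polrmt*, the mitochondrial RNA polymerase, and -0.33 (SE 0.18, edgeR adjusted p = 0.313) for *Polg*, the DNA polymerase, with ranges of -0.32 to -0.02 and -0.44 to -0.16 on leaving out 1 library. It was -0.08 for *Twnk*, the helicase, 0.12 for *Ssbp1*, which binds single strands, -0.07 for *Lrpprc*, which stabilises mitochondrial mRNAs, and -0.04 for *Ppargc1b*, a coactivator of biogenesis.

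**Figure D5:**
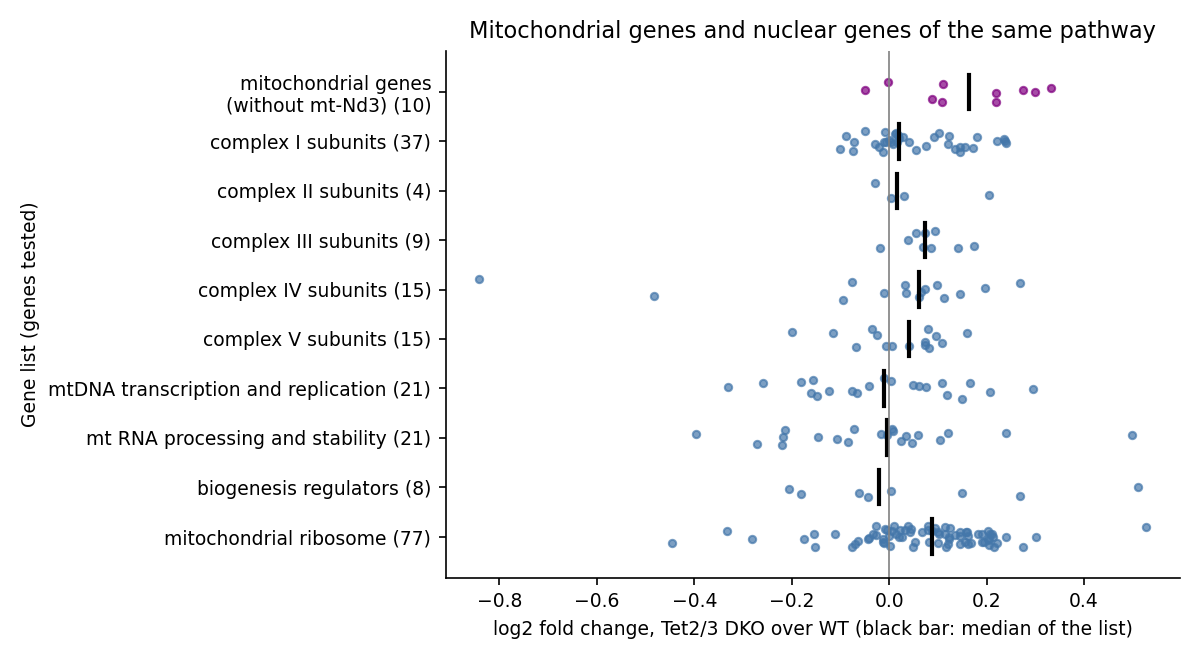
log2 fold change of *Tet2/3* DKO over WT (x axis) for each tested gene, in rows for the 10 mitochondrial genes other than *mt-Nd3* (purple) and for 9 lists of nuclear genes (blue), with the number tested in brackets and the list's median as a black bar. The mitochondrial genes span -0.05 to 0.33, and medians of the nuclear lists lie between -0.02 and 0.088.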

How the data were processed

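Per the labels, RNA of at least RIN 9 was made into SMART-Seq v4 and Nextera XT libraries. The authors trimmed reads with fastp 0.21.0, aligned them to mm10 with STAR 2.7.5a (annotation GRCm38.100), and deposited raw counts per gene, without normalization, in 3 columns (without regard to strand and by either strand). The first column was used unless said otherwise. Symbols, coordinates and transcript sequences came from GENCODE M21, which holds 55227 of the 55487 identifiers and lacks 260. Copies of mitochondrial genes were found with BLAST+ 2.17.0 among its transcripts (at least 90% identity over 100 bases). RPKM was computed here from counts on genes.

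Counts were tested with edgeR 4.0.16 in R 4.3.3 (quasi-likelihood test with the newer moderation, TMM scaling, filterByExpr, Benjamini-Hochberg adjustment over all genes, threshold 0.01). SE is the size of the log2 fold change over the square root of F. The interval of the summed pair is 1.96 SE either way. DESeq2 1.42.0 was an alternative. It was first run with its filtering tuned to 0.01 and then, after both counts had been seen, with the default filtering that the list of alternatives names. Both are given in the closing section. Shares and ratios were compared by exact permutation tests, two-sided, in scipy 1.17.1. The edgeR test was tried on simulated counts of 13215 genes. It recovered 63 of 100 genes set to a log2 fold change of 1 and 87 of 100 set to 2, with 7 false calls. Smaller changes were not simulated, so a gene that did not pass is not shown to be unchanged. Other alternatives changed the scaling, filter, moderation, strand column, threshold, denominator, neighbours or replicate block, or left out each library.

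The genes, gene lists and tests were chosen with earlier results of these data known. Named genes are all members, their nuclear copies, 7 nuclear factors chosen by function and called genes of the lists. Depth ranged from 17607089 to 27267031 counts on genes per library. T cell receptor clonotype files were not used.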

Additional observations from a re-analysis of the deposited data

How the results depend on the processing

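Against 530 genes called by edgeR, DESeq2 called 1030 with its default filtering and 1025 with filtering tuned to 0.01, the threshold of 0.05 gave 1173, and leaving out 1 library gave 110 to 1311. The count of 1 mitochondrial gene became 0 with *mt-Nd3* and *Gm28438* summed (log2 fold change 0.054) and ranged from 0 to 1 with 1 library left out. The 1 called gene of mitochondrial gene expression became 2 with DESeq2 under either filtering and at the threshold of 0.05, and 0 without a filter on low counts and with the replicate block, with a range of 0 to 1 on leaving out 1 library. Respiratory chain subunits stayed at 0 called in every alternative. With 1 library left out, the genotype difference in the mitochondrial share ranged from 0.0825 to 0.167 percentage points, in the rRNA share of mitochondrial counts from -4.36 to 0.917, in the forward-strand share from -0.0472 to 0.246, in *mt-Nd3* counts per 1000 neighbour counts from -12.5 to -9.86 and in chromosome 1 copy counts per 1000 mitochondrial mRNA counts from 0.399 to 0.564. That last difference was -0.0129 without *Gm28438*, and 0.0159 without it but with the copies outside chromosome 1.

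log2 fold changes near 0 turned. *mt-Nd6* was 0.12 and 0.16 by strand, *mt-Tp* 0.19 on 1 strand setting, *Tfam* -0.00056 with DESeq2 (either filtering), -0.016 without the filter, -0.0096 on 1 strand setting and -0.031 with the replicate block, and *Ppargc1b* 0.071 on 1 strand setting. With 1 library left out, *mt-Rnr2* ranged from -0.16 to 0.32, *mt-Nd6* from -0.12 to 0.0020, *mt-Tp* from -0.18 to 0.12, *Tfam* from -0.071 to 0.058, *Twnk* from -0.13 to 0.0066 and *Lrpprc* from -0.16 to 0.071. The cause was not tested. Replicate numbers are shared between genotypes but are only numbers (correlations of same-numbered deviations 0.0151 and 0.00446), and the replicate block gave 358 called genes and 1 mitochondrial gene. *mt-Co3* alone as neighbour was not run, because it is at 0 in 2 libraries.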
